A study of Mus musculus with 10 samples.

Results

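Voltage-gated ion channel genes were described in neurites, the axons and dendrites of cultured mouse cortical neurons, before and after injury and with or without Cpeb1. The group comprised protein-coding genes whose symbol begins with Kcn or Cacn, or is Hcn or Scn followed by a number. Of 138 such genes in the deposited matrix, 101 reached a value of 1 in 2 or more of the 10 libraries and formed the group described here, among 15712 genes that met the same criterion. The symbol rule is wider than its label. It takes in inward rectifiers (Kcnj), two-pore-domain channels (Kcnk), small-conductance calcium-activated channels (Kcnn) and Cacng proteins, which are not gated by voltage or not known mainly as channel subunits, and 69 of the 101 genes are left when these, Kcnt1 and its relatives and Kcnrg are set aside.

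Neurons came from C57BL/6 wild-type embryos or from Cpeb1 flox/flox embryos on the same background, at E16.5, and grew on membranes with 3 µm pores. Both genotypes, the wild-type cultures included, received an adeno-associated virus expressing Cre from the ubiquitous CAG promoter at plating, so deletion of the floxed sequence happened in culture and in those cells the virus reached. Injured neurites were scraped from the underside of the membrane at day 7 and collected 24 hours later at day 8, and naive neurites were collected at day 8 without scraping. Wild type gave 3 naive and 3 injured libraries and the knockout 2 of each, and the labels do not say whether replicates were separate cultures, so each p-value reflects the spread among these libraries alone, which may be technical. Regrown neurites are also younger than naive ones, so injury and neurite age cannot be told apart.

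An action potential begins when sodium channel pore subunits (Scn1a to Scn11a) open, and it ends when potassium channels of the Kv families carry current out of the cell. Calcium channels, built from a Cacna1 pore with alpha2-delta (Cacna2d) and beta (Cacnb) subunits, turn the electrical signal into calcium entry, at axon terminals for transmitter release and elsewhere for signalling to the nucleus. Hcn channels open on hyperpolarization, inward rectifiers and two-pore-domain channels set the resting potential, and auxiliary subunits such as the Kcnip and Kcnab proteins adjust the gating and surface delivery of the pores. Cpeb1 binds mRNAs through a cytoplasmic polyadenylation element in the 3' untranslated region and controls their poly(A) tails and translation.

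Library facts that bear on these values were as follows. Between 12231 and 13143 genes reached a value of 1 per library, and the lowest number belonged to replicate 3 of injured wild type. That library also had the lowest mean correlation with the others (0.839 against 0.867 to 0.898). All 10 neuron markers examined were measured, with summed values of 2183 to 4413 over the 10 libraries. Glial markers were present too, with sums per library of 2285 to 4817 for 8 radial glia and 438.5 to 1518 for 10 astrocyte markers. Of 9 microglial markers 5 met the value criterion, and the 9 summed to 0.293 to 18.7 per library, highest in knockout naive replicate 2. Cx3cr1 and Tmem119 among them were listed at 0 in every library. Cpeb1 (chromosome 7, 81347026 to 81455465, mm10) was at 7.16, 5.96 and 5.86 in naive wild type and at 1.65, 13.8 and 22.6 in injured wild type, as labelled. For the knockout label it was at 5.97 and 0.356 before injury, so that replicate 1 lay within the range of naive wild type, and at 1.14 and 3.15 after. Knockout minus wild type gave -1.25 ± 0.91 (log2 ± SE, limma adjusted p = 1) in naive and -1.71 ± 0.91 (limma adjusted p = 0.549) in injured neurites, and all directions between genotypes follow the labels.

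In naive wild-type neurites the channel genes were expressed at low to moderate levels. Values are taken as FPKM, fragments per length and library size, scaled between libraries by the authors, so levels can be compared between genes. The median of the 101 gene means was 4.08, against 7.32 over all genes tested. A mean of at least 10 was reached by 20 genes, 69 lay between 1 and 10, and 12 lay under 1. The 5 most abundant genes held 32.1% of the summed value.

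Calcium channel subunits included the most abundant of these genes. Cacnb3, the beta3 subunit that carries pores to the membrane, had values of 108, 73.8 and 103 in the 3 wild-type naive libraries. Cacna2d1, the alpha2-delta1 subunit bound by gabapentin, averaged 24.98 ± 5.64 (SD, n = 3) and Cacnb1 16.2 ± 0.737. These auxiliary subunits stood above every pore. Among pores, the P/Q-type gene Cacna1a had values of 7.57, 13.9 and 11.9, the T-type gene Cacna1h averaged 9.09 ± 5.01 and the N-type gene Cacna1b 7.76 ± 6.16. The naive values of Cacna1b, 5.78, 2.84 and 14.7, overlapped those of both others, so the order of these pores does not exceed the spread between replicates. All 8 measured pore genes had means above 1. Cacng4, Cacng3 and Cacng2, whose proteins accompany AMPA-type glutamate receptors in neurons, averaged 22.2 ± 0.509, 13.2 ± 2.89 and 4.16 ± 1.44.

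Among sodium channel genes an auxiliary subunit stood above every pore. Scn3b, the beta3 subunit, had values of 49.9, 27.0 and 37.6 in wild-type naive libraries, while Scn2b averaged 2.48 ± 1.15. The pore genes Scn1a (10.5 ± 5.24), Scn2a (10.1 ± 2.74), Scn3a (4.64 ± 0.705) and Scn8a (4.29 ± 0.162) were the only 4 of their family to meet the value criterion. Scn2a and Scn8a encode the pores of axons and the axon initial segment, Scn1a is best known from inhibitory interneurons, and Scn3a from the embryonic brain. The skeletal muscle gene Scn4a and the sensory neuron genes Scn9a, Scn10a and Scn11a were below it, as was Scn7a.

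Potassium channel pore genes covered a wide range of levels. Kcnc1, the Kv3.1 pore of fast-spiking cells, had values of 11.5, 16.2 and 16.4 in wild-type naive libraries, and Kcna3, a Kv1 pore gene, averaged 9.10 ± 1.51. The Kv4.2 pore gene Kcnd2 averaged 8.08 ± 2.99, and the Kv1 pore gene Kcna2 was lowest of the 25 at 0.120. Silent Kv subunits, which form no channel alone and modify Kv2 pores, were led by Kcnf1 (9.05 ± 2.81), Kcnv1 (5.75 ± 1.14) and Kcng1 (4.18 ± 1.93). Of the Kv auxiliary genes Kcnip3, Kcnip1 and Kcnip4, calcium-binding partners of Kv4 pores, averaged 23.2 ± 5.37, 21.1 ± 8.57 and 14.4 ± 2.06.

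Background-conductance and calcium-activated channels completed the group. The two-pore-domain genes Kcnk1 and Kcnk2 averaged 17.7 ± 1.53 and 17.0 ± 6.498, and Kcnk10, a relative of Kcnk2, 7.86 ± 2.76. Inward rectifiers were lower, with Kcnj3 (a G-protein-gated subunit) at 5.20 ± 1.07, Kcnj16 at 4.07 ± 1.502 and the astrocyte channel Kcnj10 at 3.42 ± 0.749. For the large-conductance calcium-activated channel, the pore gene Kcnma1 averaged 12.7 ± 1.26 and its neuronal beta4 subunit Kcnmb4 15.1 ± 5.78, of whose exon bases 20.8% overlap the antisense gene Kcnmb4os2. The sodium-activated channel gene Kcnt1 averaged 9.86 ± 7.24. Of the hyperpolarization-activated channels Hcn3 was highest at 12.1 ± 4.02, followed by Hcn2 (4.23 ± 0.384) and Hcn4 (2.91 ± 1.69). Kcnrg, a soluble relative of the Kv assembly domain, averaged 0.968 ± 0.7195.

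**Figure D1:**
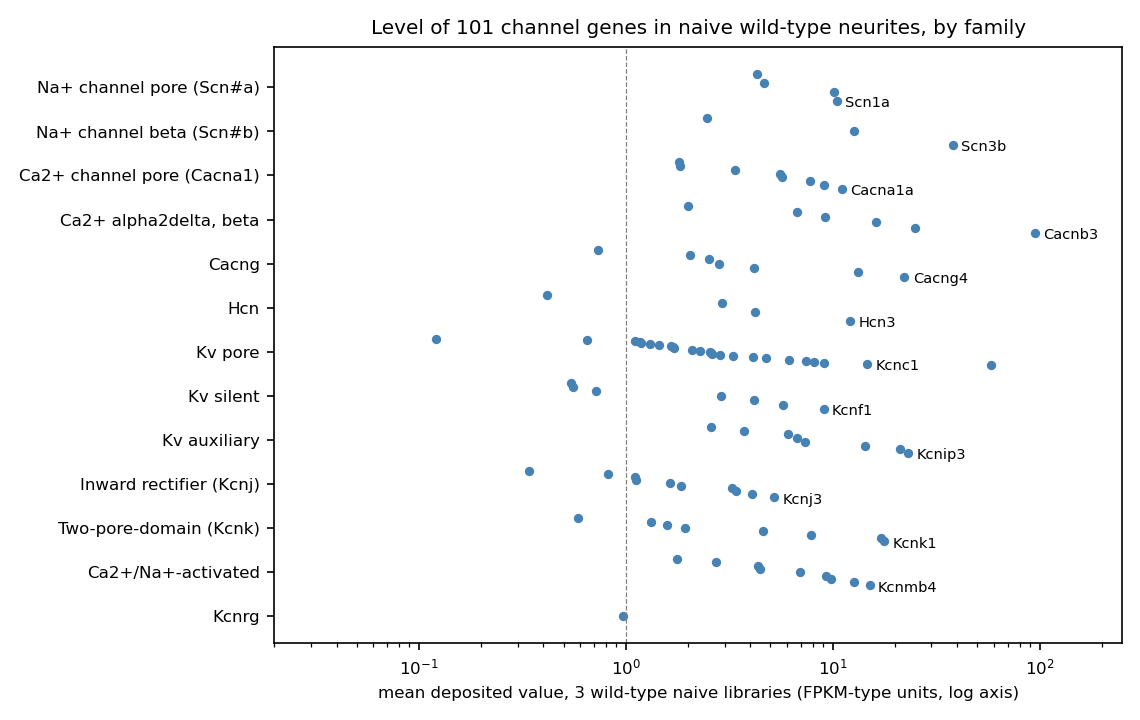
Mean deposited value of each of the 101 channel genes over the 3 wild-type naive libraries (log axis, FPKM-type units), in rows by family, with 12 of the genes described in the text named. The dashed line marks a value of 1, and Cacnb3 lies farthest to the right at a mean of 94.9.

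Genes at the edge of the value criterion show what it separates. Just inside were Kcnh1, Kcna2 and Cacng7, whose second-highest values over the 10 libraries were 1.12, 1.203 and 1.29. Just outside were Kcnj14, Scn11a and Cacna2d2, with second-highest values of 0.991, 0.986 and 0.945. Of the 37 genes outside it, 12 were listed at 0 in every library. A total of 7 genes reached a value of 1 in naive libraries and in no injured library (Kcnmb2, Kcnj11, Kcnd1, Kcnh1, Kcnk9, Kcng4 and Cacng6), and none did the reverse. Between genotypes, Kcnk13, Kcnh1, Kcnj12 and Kcnc4 reached a value of 1 in wild-type libraries and in no knockout library, and none did the reverse. All of these genes met the criterion only through the condition or genotype in which they were high. Counts and medians over the 101 genes, between conditions and between genotypes, therefore describe the group and support nothing by themselves.

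The number of channel genes detected differed between libraries. A value of at least 1 was found for 88, 81 and 87 of the 101 genes in wild-type naive libraries and for 65, 77 and 63 in wild-type injured libraries. Without the 7 genes above, which the criterion admitted through naive libraries, the numbers were 85, 77 and 81 against 65, 77 and 63 of 94, so the groups met at 77. In knockout libraries the numbers were 80 and 81 in naive and 69 and 73 in injured. Without the 7 genes they were 77 and 76 against 69 and 73 of 94. The share of all tested genes at that level was 80.7% to 82.1% in wild-type naive and 75.6% to 80.6% in wild-type injured libraries. For the knockout it was 81.77% and 81.84% before injury and 78.1% and 79.1% after. The summed value of the 101 genes was 0.0922% to 0.0972% of the library total in naive and 0.0674% to 0.0773% in injured wild-type libraries. For the knockout the shares overlapped, at 0.0779% and 0.0890% before injury and 0.0809% and 0.0783% after. In bulk samples, fewer cells or neurites of a type and less RNA per cell cannot be told apart.

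**Figure D2:**
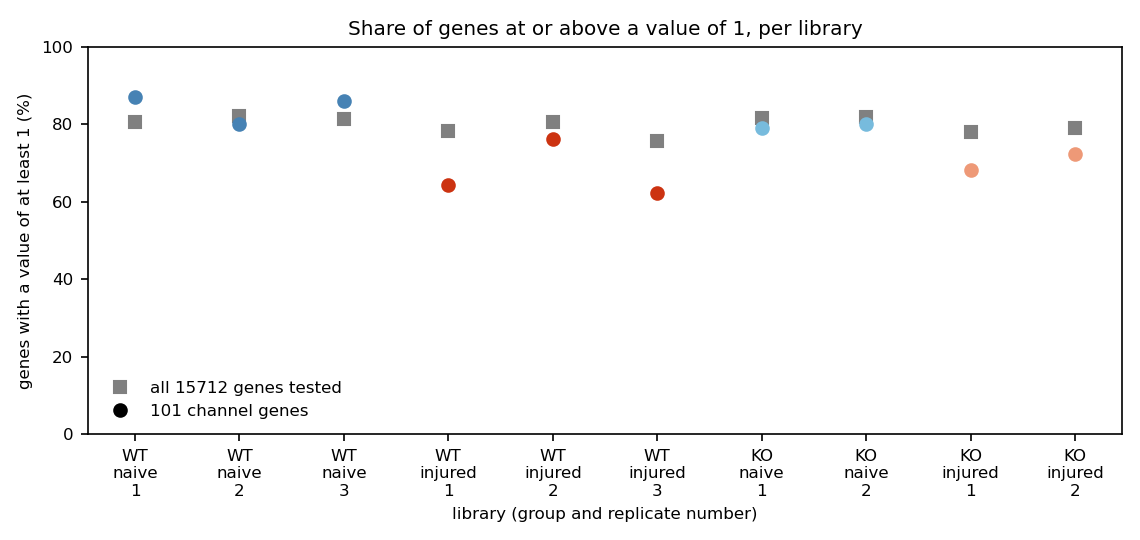
Share of genes that reached a value of 1 in each of the 10 libraries, for the 101 channel genes (coloured circles, by group) and for all 15712 genes tested (grey squares). The circles lie between 80.2% and 87.1% in the naive and between 62.4% and 76.2% in the injured wild-type libraries, and the squares between 75.6% and 82.1% in all of them.

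The first comparison, of injured with naive wild-type neurites, asks which transcripts differ 24 hours after scraping. No channel gene passed the test over all genes (limma, Benjamini-Hochberg adjusted p under 0.05), where 0.948% of all genes tested passed. At an unadjusted p under 0.05 there were 8 of the 101 genes, 3 higher and 5 lower (7.92%, against 13.9% of all genes, of which 7.66% were higher and 6.24% lower). The median log2 difference was -0.31 over the channel genes and 0.0092 over all genes tested, and 70 of 101 (69.3%) lay below 0, against 49.0% of all genes. Injured libraries lay entirely below naive ones for 10 channel genes (9.90%, against 8.02% of all genes) and entirely above for 5 (4.95%, against 9.78%). The median 95% interval, not adjusted for the number of genes, extended 1.24 to either side of a log2 difference. For 2 of the 101 genes it lay within -1 and 1. The adjusted test needs larger differences still, and Kcnmb2 at -2.24 did not pass, so differences above that size can also have been missed.

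Genes with lower values after injury included several auxiliary subunits, none of which passed, while of the 8 Kv auxiliary genes 4 lay above and 4 below 0 (median -0.056). Kcnmb2, the beta2 subunit that inactivates the large-conductance calcium-activated channel, had values of 6.72, 4.62 and 2.06 in naive libraries and 0, 0.267 and 0 in injured libraries. It had the smallest p of the group (log2 difference ± SE of -2.24 ± 0.55, limma adjusted p = 0.0835, range over the alternatives 0.0679 to 0.273) and was chosen after its values were seen. It is also among the 7 genes that met the value criterion only through naive libraries, so its difference is a description. Cacnb3 had values of 34.1, 78.9 and 41.8 in injured libraries against 108, 73.8 and 103 in naive ones. The groups overlapped in replicate 2 of each (-0.94 ± 0.32, limma adjusted p = 0.215). With the second injured wild-type library left out the difference was -1.29 and passed (limma adjusted p = 0.046, range over the alternatives 0.046 to 0.496). Scn3b had values of 23.4, 26.2 and 15.4 after injury, all below the naive ones (-0.78 ± 0.30, limma adjusted p = 0.282). Kcnip4 had values of 8.90, 8.19 and 5.83 against 12.8, 16.7 and 13.7, again without overlap (-0.84 ± 0.41, limma adjusted p = 0.383), and 7.36% of its exon bases overlap other genes.

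Several other genes had lower values, and none passed. The calcium-activated pore gene Kcnma1 had values of 5.90, 12.1 and 0.998 after injury against 11.6, 14.1 and 12.3 before (-1.27 ± 0.62, limma adjusted p = 0.386). Kcna6, a Kv1 pore gene, had values of 2.12, 3.92 and 0.875 against 6.62, 4.04 and 7.72, without overlap (-1.18 ± 0.57, limma adjusted p = 0.379). Kcnt1 (-1.27 ± 0.78), Kcnf1 (-1.35 ± 0.71) and the alpha2-delta3 gene Cacna2d3 (-1.10 ± 0.78) had adjusted p-values of 0.421 to 0.572 by limma. The last of these was at 3.61, 9.18 and 0 after injury and at 7.33, 6.96 and 5.95 before, so that the groups overlapped.

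A few genes had higher values after injury. Kcnc1 had values of 35.6, 34.7 and 23.5 against 11.5, 16.2 and 16.4 in naive libraries, without overlap (1.03 ± 0.40, limma adjusted p = 0.278). Kcnj10, the inward rectifier with which astrocytes clear potassium, had values of 9.20, 7.28 and 14.8 against 3.34, 2.71 and 4.20 (1.33 ± 0.48, limma adjusted p = 0.249). Kcnj3 had values of 9.56, 13.0 and 15.3 against 6.26, 5.21 and 4.12 (1.13 ± 0.52, limma adjusted p = 0.363). Kcnip3, whose protein also acts as a calcium-dependent transcriptional repressor, had values of 29.4, 36.1 and 58.8 against 22.7, 18.2 and 28.9 (0.77 ± 0.33, limma adjusted p = 0.317). Kcnn2, a small-conductance calcium-activated channel gene, overlapped between groups (1.19 ± 0.56, limma adjusted p = 0.371), as did Hcn4 (0.61 ± 0.52, limma adjusted p = 0.649).

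Differences of sodium and calcium pore genes came with wide intervals. The 4 sodium pore genes lay between -0.65 and -0.0069 on the log2 scale, with Scn2a at 5.36, 10.5 and 16.3 after injury and 12.8, 10.2 and 7.29 before. The interval of that difference ran from -1.02 to 1.01. Of the 8 calcium pore genes 6 lay below 0, with a median of -0.28 and a range from -0.76 to 0.55. The interval of the lowest, Cacna1i, ran from -1.92 to 0.40 and that of the highest, Cacna1b, from -0.81 to 1.92. All 6 alpha2-delta and beta genes (median -0.44) and all 7 silent Kv genes (median -0.34) lay below 0. None of the 13 families had a member that passed.

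Markers of neurons and of other cells differed in the same comparison, in which 0.948% of all genes tested passed. The summed value of the 10 neuron markers was 3476 to 3838 before and 2183 to 2987 after injury, without overlap. Their median was -0.62 with 7 of 10 below 0, that of 12 projection neuron markers -0.47, and none of either list passed. Of 16 interneuron markers 5 fell and none rose (median -1.71), among them Sst, Gad1, Dlx1 and Dlx5, and their summed value was 482 to 752 before and 60.4 to 101 after injury. Of 10 astrocyte markers 1 rose (Sox9; median 0.86), with sums of 438 to 599.6 before and 667 to 1518 after injury, the highest in replicate 3. Of 8 radial glia markers 1 rose (Vim; median 0.59), with sums of 2285 to 2810 and 2568 to 4817. Without replicate 3 the medians of the last 3 lists were -1.56, 0.56 and 0.41, and 3, 1 and 0 markers passed. The medians of the neuron and projection neuron lists were then -0.50 and -0.17, again with none passing. Of 9 RNAs of the cell body and nucleus 2 rose (Rn7sk and Malat1; median 0.16), with sums of 3209 to 4477 and 7014 to 8189, and without replicate 3 the median was -0.037 and 1 passed. No marker of these lists was at 0 in every library. Their part in the values of Kcnc1, Scn1a, Kcnj10 and the other channel genes was not tested.

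**Figure D3:**
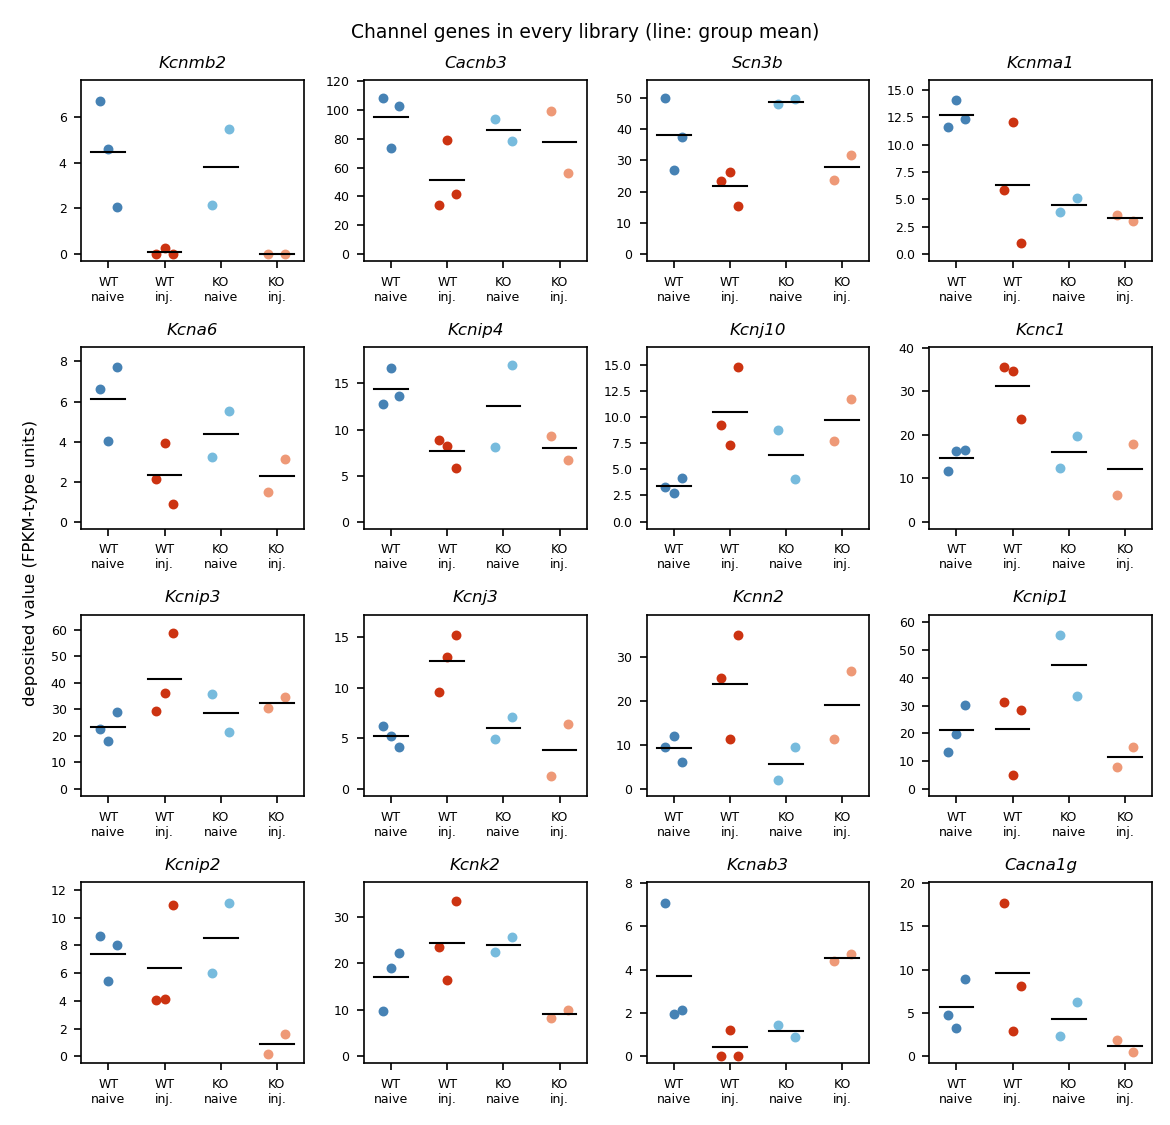
Deposited value (FPKM-type units, axes from 0) of 16 channel genes in every library, with points for libraries and a line for the group mean (WT, wild type; KO, Cpeb1 knockout; inj., injured). Kcnmb2 lies at or near 0 in all 5 injured libraries, Kcnc1 and Kcnj3 are highest in the wild-type injured libraries, and Kcnip2 and Kcnk2 have their lowest group mean in the knockout injured ones.

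Genes of proteins that bind or anchor these channels included a pair that rose. Of 40 measured partner genes 2 rose and none fell in wild-type neurites (median -0.21), where 0.948% of all genes tested passed in either direction. The partner list was chosen with earlier results of these data known, so its count is a description and supports nothing by itself. The 2 genes that rose encode small GTPases of the RGK family, which bind calcium channel beta subunits and reduce calcium current. Gem had values of 2.20, 3.06 and 3.23 in naive and 52.5, 21.5 and 56.9 in injured libraries (3.44 ± 0.50, limma adjusted p = 0.00726, n = 3 and 3). Rem2 had values of 0, 6.40 and 3.20 in naive and 20.6, 41.8 and 45.35 in injured libraries (3.48 ± 0.67, limma adjusted p = 0.0317). Every injured library lay above every naive one for both genes, as it did for 9.78% of all genes tested. Gem did not pass with no filter on low values or in a fit of the groups compared only (limma adjusted p = 0.0552 and 0.0658, range over 19 alternatives 0.00427 to 0.0658), and Rem2 did not pass in 13 of 19 alternatives (range 0.0121 to 0.179). In knockout neurites Gem had values of 2.42 and 2.28 before and 8.01 and 21.8 after injury (2.10 ± 0.61, limma adjusted p = 0.573). The knockout values of Rem2 were 2.57 and 7.11 before and 13.9 and 17.6 after (1.63 ± 0.82, limma adjusted p = 0.905). The difference between these responses was -1.34 ± 0.79 for Gem and -1.84 ± 1.05 for Rem2 (limma adjusted p = 0.811 and 0.807). Fgf13, whose protein binds sodium channels and microtubules, had values of 85.5, 97.3 and 76.8 before and 49.9, 64.4 and 28.0 after injury of wild-type neurites (-0.92 ± 0.29, limma adjusted p = 0.187), and was named after its values were seen. Ank3, which anchors channels at the axon initial segment, was close to 0 at -0.033 ± 0.36 (limma adjusted p = 0.985).

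**Figure D4:**
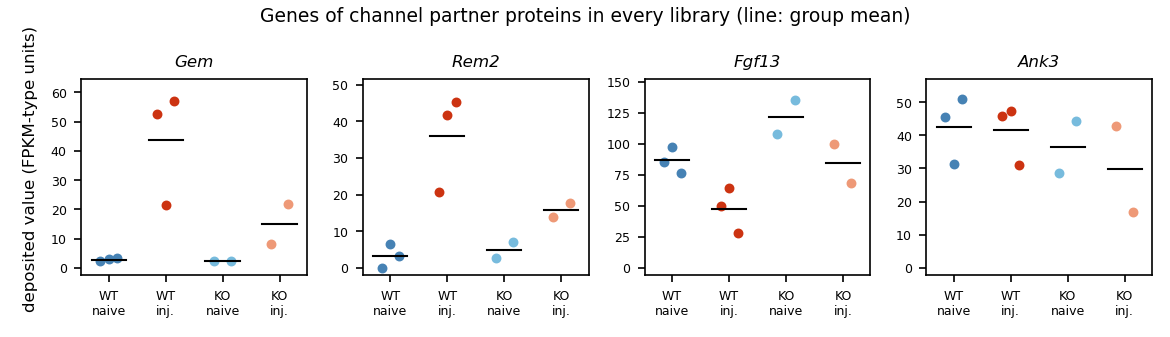
Deposited value (FPKM-type units, axes from 0) of 4 genes whose proteins bind or anchor voltage-gated channels, in every library, with a line for the group mean. Gem and Rem2 have their highest group mean in the wild-type injured libraries, with values from 21.5 to 56.9 and from 20.6 to 45.35.

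Injury of knockout neurites gave no channel gene that passed either (limma; 0.0573% of all genes tested passed). At an unadjusted p under 0.05 there were 5 of 101 genes, 1 higher and 4 lower (4.95%, against 5.73% of all genes, of which 1.68% were higher and 4.05% lower). The median was -0.34 over the channel genes and -0.087 over all genes, and 68 of 101 (67.3%) lay below 0, against 56.15%. Groups of 2 did not overlap for 26 channel genes that were lower (25.7%, against 22.1% of all genes) and 8 that were higher (7.92%, against 13.5%). Kcnmb2 had values of 2.17 and 5.48 in naive libraries and was listed at 0 in both injured ones (limma adjusted p = 0.607).

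The 4 Kcnip genes, partners of Kv4 pores, ranged from -2.40 to 0.23 here. Kcnip2 had values of 6.04 and 11.1 before and 0.18 and 1.57 after injury (-2.40 ± 0.69, limma adjusted p = 0.549, n = 2 and 2). Kcnip1 had values of 55.6 and 33.6 before and 7.89 and 15.2 after (-1.88 ± 0.70, limma adjusted p = 0.784). Kcnip4 (-0.52 ± 0.50) and Kcnip3 (0.23 ± 0.40) overlapped between groups (limma adjusted p = 0.977 and 0.995). The Kv4.2 pore gene Kcnd2 itself had values of 8.29 and 3.73 before and 18.6 and 10.5 after (1.18 ± 0.65, limma adjusted p = 0.933). The two-pore-domain gene Kcnk2 had values of 22.4 and 25.6 before and 8.17 and 9.93 after (-1.32 ± 0.47, limma adjusted p = 0.74), and an antisense gene covers 12.2% of its exon bases. Kcnn2 had values of 1.96 and 9.54 before and 11.4 and 26.7 after (1.73 ± 0.69, limma adjusted p = 0.795). Scn3b, at 48.1 and 49.5 before and 23.8 and 31.8 after (-0.80 ± 0.37, limma adjusted p = 0.868), lay below its naive values here as in wild type. The T-type gene Cacna1g (-1.27 ± 0.82), Kcnk12 (-1.15 ± 0.92) and Cacng3 (-1.08 ± 0.80) had limma adjusted p-values of 0.943 to 0.975. Among genes at or above the median level of the group, the higher values after Kcnn2 and Kcnd2 were those of Hcn4 (0.70 ± 0.64), Kcnj10 (0.59 ± 0.59), Kcnh7 (0.55 ± 0.80) and Kcnv1 (0.46 ± 0.56), with limma adjusted p-values of 0.977 to 0.991. Without knockout injured replicate 1 the Cacng3 difference was 0.46 and that of Kcnh7 -0.27. The interneuron list had a median of -1.43 with 1 of 16 falling, and sums of 522 and 903 before and 76.0 and 135 after injury. None passed without knockout naive replicate 1 and 3 passed without wild-type injured replicate 3, and the part of this list in these values was not tested.

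**Figure D5:**
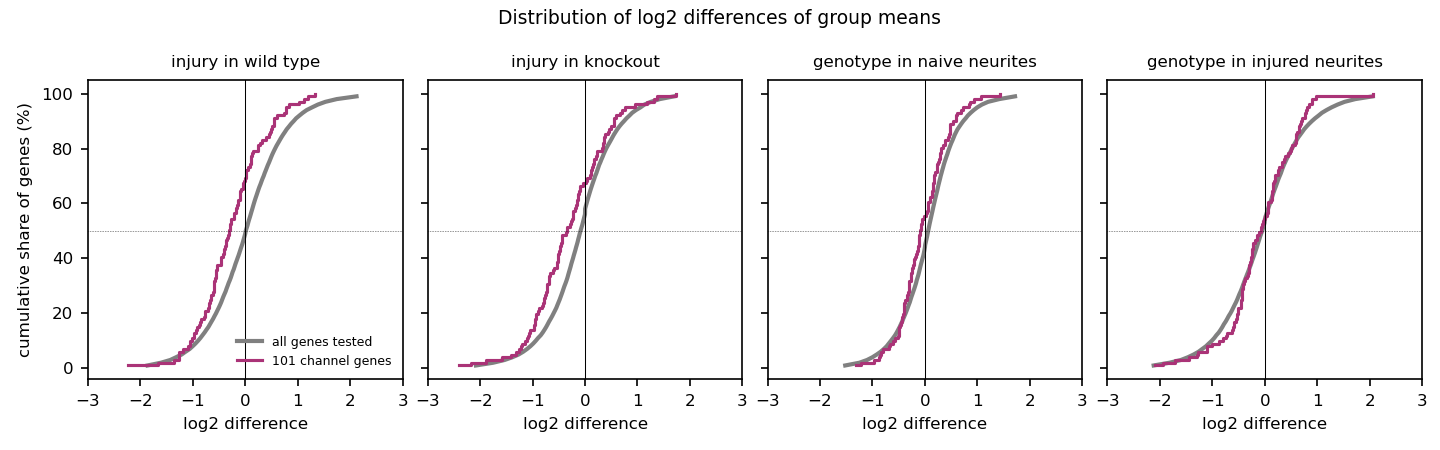
Cumulative share of genes against the log2 difference of group means in 4 comparisons, for the 101 channel genes (purple) and all 15712 genes tested (grey). In both injury comparisons the purple line lies to the left of the grey one at the dotted midline, at medians of -0.31 and -0.34 against 0.0092 and -0.087.

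Genotype in naive neurites asked which channel transcripts differ with the Cpeb1 label before injury. No channel gene passed (limma; 0.146% of all genes passed), and none had an unadjusted p under 0.05, against 3.76% of all genes. The median was -0.090 over the channel genes and 0.063 over all genes, with 56 of 101 (55.4%) below 0, against 43.7% of all genes. Knockout libraries lay entirely above wild-type ones for 7 channel genes and entirely below for 7 (6.93% each, against 14.1% and 8.51% of all genes). Kcnma1 had values of 3.81 and 5.17 in knockout and 11.6, 14.1 and 12.3 in wild-type libraries (-1.32 ± 0.69), and Kcnip1 had values of 55.6 and 33.6 against 13.3, 19.8 and 30.3 (1.07 ± 0.64). Kcnh7 (-0.87 ± 0.73), Kcnn2 (-0.83 ± 0.63), Kcne1l (0.94 ± 1.203) and Kcnj10 (0.68 ± 0.54) completed the 3 highest and 3 lowest differences among genes at or above the median level of the group, and each had a limma adjusted p of 1. Without the library labelled knockout naive replicate 1 the Kcnn2 difference was 0.084.

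Genotype in injured neurites likewise gave no channel gene that passed (limma; 0.261% of all genes passed), and 6 of 101 had an unadjusted p under 0.05 (5.94%, against 10.5% of all genes). Of these 5 were lower and 1 higher, against 5.95% and 4.5% of all genes. Of the 9 RNAs of the cell body and nucleus 1 fell (Malat1, -1.79 ± 0.29, limma adjusted p = 0.020; list median -0.48). Their sums were 7014 to 8189 in wild-type and 2082 and 3565 in knockout injured libraries, and their part in the values below was not tested. Medians were -0.070 for the channel genes and -0.049 for all genes, and 55.4% and 53.1% lay below 0. Knockout libraries lay entirely below wild-type ones for 11 channel genes (10.9%, against 12.2% of all genes) and above for 3 (2.97%, against 9.72%).

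The 6 genes came from 5 families. Kcnc1 had values of 6.17 and 17.9 in knockout and 35.6, 34.7 and 23.5 in wild-type injured libraries (-1.45 ± 0.45, limma adjusted p = 0.294). Kcnip2 had values of 0.18 and 1.57 against 4.03, 4.10 and 10.9 (-1.95 ± 0.63, limma adjusted p = 0.307). Kcnk2 had values of 8.17 and 9.93 against 23.4, 16.48 and 33.4 (-1.29 ± 0.43, limma adjusted p = 0.318). None of these overlapped between genotypes, and nor did the other 3. Kcnj3 had values of 1.27 and 6.43 against 9.56, 13.0 and 15.3 (-1.71 ± 0.59, limma adjusted p = 0.333). Cacna1g, whose T-type channel opens near the resting potential, had values of 1.87 and 0.461 against 17.8, 2.89 and 8.12 (-2.09 ± 0.75, limma adjusted p = 0.348). Kcnab3, a Kv beta subunit, went the other way with values of 4.39 and 4.71 in knockout and 0, 1.23 and 0.037 in wild-type libraries (2.07 ± 0.66, limma adjusted p = 0.305). At the upper end among the better expressed genes were Kcnf1 (0.90 ± 0.80), Cacna1h (0.84 ± 0.54) and Cacna2d3 (0.77 ± 0.87), with limma adjusted p-values of 0.617 to 0.776. The Cacna2d3 difference was -0.16 without wild-type injured replicate 3 and -0.23 without knockout injured replicate 1.

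Because Cpeb1 acts through elements in 3' untranslated regions, those of the channel genes were searched on the mRNA strand. The search was for TTTTAT and TTTTAAT, 2 forms of the cytoplasmic polyadenylation element. A match that shared a base with the match before it was not counted, so numbers of matches can be too low. The longest 3' untranslated region annotated in GENCODE release M21 held at least 1 match in 63 of 101 channel genes (62.4%), against 63.0% of 13116 protein-coding genes tested. The channel regions were longer (median 1860 bases against 1210) and held 1.06 matches per kilobase against 1.29. Of the 6 genes above, Kcnab3 and Kcnip2 had no match. The matches nearest the 3' end of the other 4 are shown with 9 bases on either side, the element in capitals, since these genes had unadjusted p-values under 0.05 between injured genotypes, although none passed after adjustment.
Kcnc1: ctatctcagTTTTATgagaacctg
Kcnk2: agagagtacTTTTATaaacctatg
Kcnj3: agagagtcaTTTTAATttgtttttg
Cacna1g: atggaacctTTTTATatatataca
The start of the element lay 77 bases from the annotated end in Cacna1g, 165 in Kcnk2, 747 in Kcnj3 and 4014 in Kcnc1. Kcnj3 held 4 matches in all, Cacna1g 3 and the others 1 each. The median genotype difference in injured neurites was -0.065 over the 63 channel genes with a match and -0.16 over the 38 without, and in naive neurites -0.11 and -0.068. A match describes the sequence and does not show binding.

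The interaction asked whether the response to injury differed between genotypes. No channel gene and no gene of all those tested passed by limma (0%), and 5 channel genes had an unadjusted p under 0.05 (4.95%, against 6.23% of all genes). Of these 1 was higher and 4 lower, against 1.93% and 4.3% of all genes. Those 5 were Kcnab3, Kcnk2, Kcnc1, Kcnip2 and Kcnj3. Kcnab3 had the largest difference between responses at 3.04 ± 0.93 (limma adjusted p = 0.791). In wild-type neurites its values went from 7.10, 1.94 and 2.16 to 0, 1.23 and 0.037, and in knockout neurites from 1.43 and 0.909 to 4.39 and 4.71. The response of Kcnk2 differed by -1.84 ± 0.60, that of Kcnc1 by -1.55 ± 0.64, that of Kcnip2 by -2.11 ± 0.89 and that of Kcnj3 by -1.88 ± 0.83 (limma adjusted p = 0.791 to 0.799). Kcnd2 (1.06 ± 0.84), Kcnf1 (1.01 ± 1.13) and Cacna1h (0.94 ± 0.76) had the highest positive values among the better expressed genes (limma adjusted p = 0.856 to 0.907).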

How the data were processed

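The authors deposited 1 value per gene and library for 45195 Ensembl genes. The submitters' processing notes name STAR 2.4.2a and RSEM 1.2.21 with mm10 but not the unit or scaling. The deposited values were taken as FPKM divided by a factor per library. They are multiples of 0.01 times such a factor, and the sum of undivided values times transcript length varied less between libraries (coefficient of variation 1.29%) than the plain sum (4.98%). Whole reads were not recovered, so depth is unknown here and no counting intervals are given. Libraries were primed from poly(A) tails (Smart-seq2, 14 and 11 PCR cycles, 1 ng RNA), per the labels' protocols, and are taken as unstranded.

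Names and coordinates came from GENCODE M21, which matched 44548 gene IDs. limma 3.58.1 (R 4.3.3; eBayes, mean-variance trend) was fitted to log2(value + 1) of the 15712 genes that reached a value of 1 in 2 or more libraries, with 4 group means over 10 libraries. The Benjamini-Hochberg adjustment ran over all of them, and differences of low genes are understated on this scale. The residual and prior degrees of freedom were 6 and 6.8. The fit was tested on simulated data. A value of exactly 0 can be a failed estimate (43 of 4587 genes with a mean of at least 20 had one).

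Genes named were the 3 most abundant of each family in wild-type naive libraries, and among genes at or above the median level the 6 highest and lowest differences for injury and 3 for genotype and interaction. Members with an unadjusted p under 0.05 and others were chosen after their values were seen. Some genes that this rule names are not reported here. The members and lists were chosen with earlier results of these data known. No member had a near-identical copy among the genes tested (blastn 2.17.0, 95% identity over at least 150 bases and 50% of the shorter transcript). Genes were also compared for exon overlap on either strand. Alternatives changed the pseudocount, filter, scaling, trend, libraries fitted, replicate block and symbol rule.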

Additional observations from a re-analysis of the deposited data

How the results depend on the processing

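No channel gene passed in any of the 5 comparisons under any alternative, with 1 exception. Without wild-type injured replicate 2, 1 gene passed for injury in wild type (Cacnb3), so the count ranged from 0 to 1 there over libraries left out and was 0 elsewhere. The median for injury in wild type stayed below 0, at -0.51 and -0.12 with a pseudocount of 0.1 and 5, -0.17 with no filter on low values and from -0.37 to -0.19 with 1 library left out. That for knockout injury was -0.56, -0.13 and -0.23 under the same settings, -0.19 after quantile normalization, -0.26 on median-ratio scaling, and from -0.49 to -0.16 with 1 library left out. The genotype medians were 0 with no filter in naive neurites (-0.11 to 0.010 with 1 library left out) and -0.17 with a minimum value of 5 in injured neurites (-0.17 to 0). The interaction median changed sign, to 0.052 after quantile normalization and 0.016 on median-ratio scaling, and ran from -0.18 to 0.0009 with 1 library left out. Quantile normalization moved the interaction median of all genes from -0.13 to 0.017. The cause of these shifts was not tested. Of 849 values of 45 named differences 5 changed sign: Cacng3 (0.46; -2.63 to 0.46 with 1 library left out) and Kcnh7 (-0.27; -0.27 to 1.37) in knockout injury, both without knockout injured replicate 1, Kcnn2 (0.084; -1.75 to 0.084) between naive genotypes without knockout naive replicate 1, and Cacna2d3 (-0.16 and -0.23; -0.23 to 1.76) between injured genotypes without wild-type injured replicate 3 or knockout injured replicate 1. Alternatives for Gem and Rem2 were added after their values were seen.

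Same-numbered libraries did not deviate together (correlations of -0.0014 to 0.031 between wild-type naive and injured), so the numbers are not taken to pair the samples. With the replicate number as a block 0 channel genes passed in every comparison, and calls over all genes went from 149 to 146 for wild-type injury and from 9 to 5 for knockout injury. With 2 or 3 libraries a group, unadjusted 95% intervals of most channel genes were wider than 1 log2 unit to either side. Differences well above that size did not pass after adjustment either, such as Kcnip2 in knockout injury (-2.40) and Kcnab3 in the interaction (3.04). An absence of calls therefore does not show an absence of differences.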

Other observations

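Both channel genes described here were listed with sizeable values and were chosen after those values were seen. Kcnu1, a potassium channel gene known from sperm, was at 13.2, 5.65 and 2.04 before and 0, 5.61 and 12.8 after injury of wild-type neurites. For the knockout the values were 7.74 and 3.52 before and 7.33 and 4.46 after. Kcne1l, a small single-pass potassium channel subunit gene on the X chromosome, had the widest range of the 101 genes within injured wild type, at 8.21, 0 and 55.9 in the 3 libraries. Neither gene has exon overlap with another tested gene.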
